A study of Mus musculus with 47 samples.

Results

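The GATA factors Gata1, Gata2 and Gata3 and the cofactor Zfpm1 were followed across 17 sorted blood cell populations of mouse bone marrow. Members were all probe sets (the groups of short probes that report 1 transcript on the array) that the platform annotation gives to 1 of these 4 symbols and to no other gene. This rule found 6 probe sets for the 4 genes, of 45101 probe sets on the array and 18194 genes with a probe set of their own. Gata1 and Gata3 had 1 probe set each, and Gata2 and Zfpm1 had 2 each. All 4 genes were among the 13949 tested, those in which some population averaged over 3.889 on the log2 scale (the median of the whole table).

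The study measured RNA on 47 Affymetrix arrays, each made from 2000 cells that were sorted from the bone marrow of adult C57Bl6 mice and amplified in 2 rounds. The labels give the 17 groups by short names, which in common use stand for stem cells (LTHSC with 2 arrays, STHSC with 2), progenitors of several lineages (LMPP with 5, MkE with 4, GM with 2, GMP with 3, CLP with 2), steps to red cells (PreCFUE, CFUE and ProE, with 3 each), to megakaryocytes (MkP with 3) and to T cells (ETP with 3), B lineage cells (ProB with 2, PreB with 4, IgM+SP with 2) and mature T and NK cells (CD4 and NKmature, with 2 each). The labels spell out none of the names, give no sorting markers and record no treatment, genotype or age beyond adult. The arrays of a group are labelled biological replicates, with no animals or pools named. Each p-value sets a difference against the spread among arrays within groups, pooled over all 17 groups, not that of the compared groups alone. This spread may be partly technical.

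GATA factors are zinc finger proteins that bind DNA at the letters GATA. Gata2 is known from stem cells, early progenitors and mast cells, and Gata1 from red cell, megakaryocyte, mast cell and eosinophil development, where it is known to take the place of Gata2 at shared sites as red cells mature. Gata3 is known as a factor of T cells and innate lymphocytes, and Zfpm1, also called Fog1, is a zinc finger protein that does not need DNA contact of its own but binds GATA factors and carries corepressors to them.

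The start sites of the members are shown because GATA factors are known to act on genes of their own family. Each stretch is the 250 bases before a transcription start, 5′ to 3′ on the strand of the gene, from RefSeq on GRCm38.p6, with each CpG in capitals. The stretch of Gata1 lies at chrX:7967911-7968160 on the minus strand, that of Gata2 at chr6:88193641-88193890 on the plus strand, that of Gata3 at chr2:9878601-9878850 on the minus strand and that of Zfpm1 at chr8:122281891-122282140 on the plus strand.
Gata1: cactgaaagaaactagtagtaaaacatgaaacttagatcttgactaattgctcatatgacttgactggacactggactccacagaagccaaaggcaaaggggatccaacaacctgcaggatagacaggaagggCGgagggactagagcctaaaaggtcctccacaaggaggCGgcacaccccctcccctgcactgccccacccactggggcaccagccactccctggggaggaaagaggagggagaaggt
Gata2: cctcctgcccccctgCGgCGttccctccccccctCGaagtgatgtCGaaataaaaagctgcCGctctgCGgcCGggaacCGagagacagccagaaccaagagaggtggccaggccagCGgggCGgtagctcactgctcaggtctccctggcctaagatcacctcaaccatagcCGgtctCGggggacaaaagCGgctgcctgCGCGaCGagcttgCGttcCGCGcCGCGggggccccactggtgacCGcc
Gata3: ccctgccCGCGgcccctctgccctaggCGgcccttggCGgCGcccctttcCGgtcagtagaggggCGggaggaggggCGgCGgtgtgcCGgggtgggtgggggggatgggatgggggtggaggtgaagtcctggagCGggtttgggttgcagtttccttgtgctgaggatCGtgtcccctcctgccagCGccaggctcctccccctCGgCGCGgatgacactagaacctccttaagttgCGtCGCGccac
Zfpm1: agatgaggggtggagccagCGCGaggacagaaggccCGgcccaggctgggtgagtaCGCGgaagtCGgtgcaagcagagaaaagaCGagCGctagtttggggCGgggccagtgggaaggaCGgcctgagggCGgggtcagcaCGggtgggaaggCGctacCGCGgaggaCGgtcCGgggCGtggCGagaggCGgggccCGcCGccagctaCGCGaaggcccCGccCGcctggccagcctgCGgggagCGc
The Gata1 stretch holds 2 CpG and is 54% G or C. The stretches of Gata2, Gata3 and Zfpm1 hold 22, 19 and 28 CpG, at 67.2%, 70% and 73.2% G or C. A second start of Gata2, with its stretch at chr6:88198414-88198663, has 24 CpG and 74% G or C. Over 32851 such windows of mouse genes the median was 6 CpG, 29% held 2 or fewer and 19.7% held 19 or more, so the Gata1 window is among the CpG-poor ones and the other 4 are among the CpG-rich ones. The usual forms of the GATA motif were searched on both strands, with the letters AGATAA or AGATAG, or the same with T as the first letter. None of the 5 windows holds one, and 26.5% of all windows do, which says only that these letters are not in these 250 bases. The genes themselves span X:7959260-7976663 for Gata1, 6:88193891-88207032 for Gata2, 2:9857078-9887953 for Gata3 and 8:122281856-122337862 for Zfpm1. The windows of Gata1, Gata3 and Zfpm1 lie inside these spans, and an annotation of exons was not used here.

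Before the values, 3 facts of the arrays bear on them. Replicates correlated at 0.928 to 0.997 over the genes tested, and 46 of 47 arrays were most like an array of their own group. Xist, made from the inactive X chromosome of females, and the Y-linked Eif2s3y divided the arrays into 21 with Xist but no Eif2s3y (over 7 and 5 on the log2 scale), 19 with Eif2s3y but no Xist, and 7 with both, namely LMPP replicates 3 to 5, ETP replicates 2 and 3 and both NKmature arrays. Of the 23 comparisons below, 6 lay within 1 such class, 7 shared a class in part and 10 shared none. In those 10 the class and the population cannot be told apart. PreB alone held arrays with only Xist beside arrays with only Eif2s3y. A fit with the class as a block so takes the difference between Xist and Eif2s3y arrays from the 4 PreB arrays. Marker lists went with most labels. The mean log2 level of 9 natural killer (NK) genes was 10.24 and 10.39 on the NKmature arrays, and that of 7 erythroid genes was 9.71 to 9.75 on the ProE arrays. The exceptions were both arrays labelled ProB, with NK genes at 8.59 and 8.29 and B lineage genes at 7.81 and 6.05 (9.03 to 10.25 on the PreB arrays), and the ETP arrays, with 12 T lineage genes at 5.31 to 5.42, against 4.96 to 5.49 on the LMPP arrays.

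Levels below are log2 of the deposited intensity, and 1 unit is a 2-fold difference. A level is read only within 1 probe set, since probe sets differ in brightness and in their own background signal, which was not measured here. The arrays were made from bulk RNA, so fewer cells that make a transcript and less of it per cell cannot be told apart. All 4 genes differed among the 17 groups by limma's moderated F-test (adjusted p = 6.5e-27 for Gata1, 3.5e-24 for Gata2, 1.9e-17 for Gata3 and 1.9e-19 for Zfpm1), as did 90.3% of all genes tested. Ranked by F among the 13949 genes, Gata1 stood at place 54, Gata2 at 153, Zfpm1 at 655 and Gata3 at 1040. The distance between the highest and the lowest group mean was 6.38 for Gata1, 6.10 for Gata2, 5.18 for Zfpm1 and 3.70 for Gata3, and 2.88%, 3.49%, 6.47% and 16.8% of the genes tested had a wider one.

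**Figure D1:**
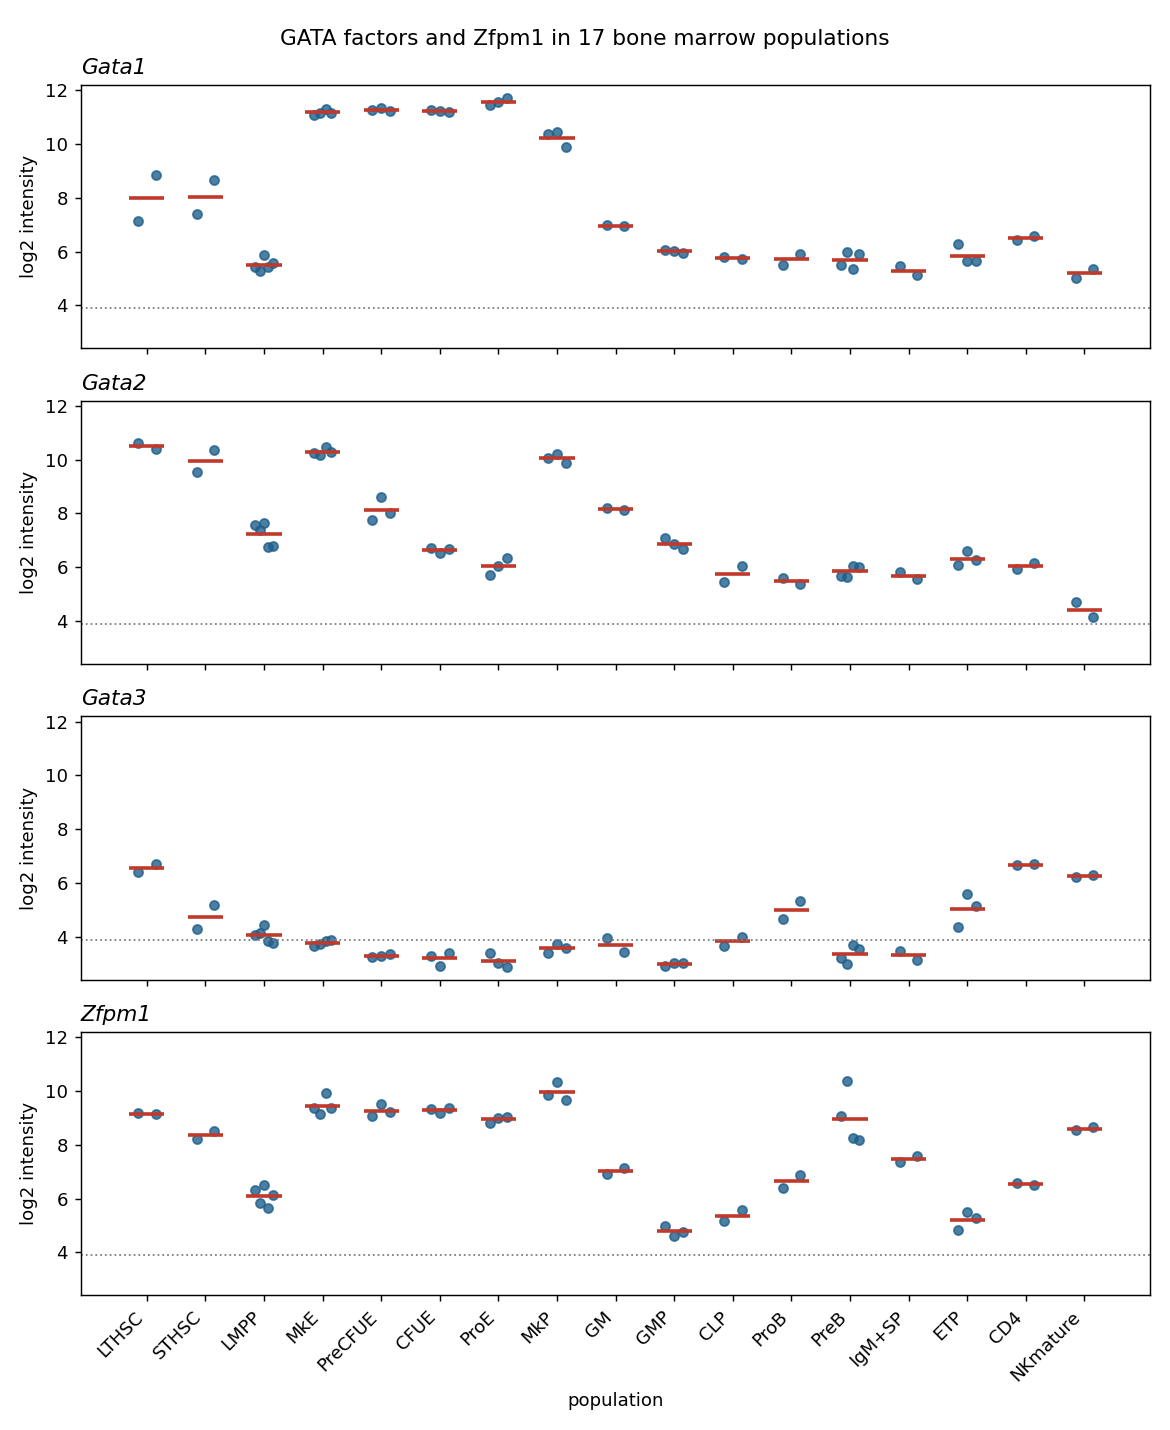
Log2 intensity (vertical axis) of the probe set used for each gene on each of the 47 arrays (points), with the group mean (bar), for the 17 populations along the horizontal axis. The dotted line is the filter level of 3.889. Gata1 stands between 9.90 and 11.70 on every MkE, PreCFUE, CFUE, ProE and MkP array and at most at 8.84 elsewhere, while Zfpm1 is also high in PreB and NKmature.

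Gata1, the factor of red cell and megakaryocyte development, was high in 5 of the 17 populations. It read 11.47, 11.58 and 11.70 on the ProE arrays, 11.28, 11.34 and 11.24 on the PreCFUE arrays, 11.25, 11.21 and 11.18 on the CFUE arrays and 11.09, 11.15, 11.29 and 11.17 on the MkE arrays. On the MkP arrays it read 10.39, 10.44 and 9.90, so these 16 arrays lay above all 31 others. The stem cell groups came next and were the most scattered, at 7.41 and 8.65 in STHSC and 7.13 and 8.84 in LTHSC. The other 10 groups had means between 5.20 in NKmature and 6.97 in GM, where both arrays read 6.98 and 6.95.

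In the order of the Gata1 means, 3 of the 16 neighbouring pairs differed beyond their spread, meaning that their arrays did not overlap and the gap exceeded 2 standard errors. These were MkE over MkP, MkP over STHSC, and LTHSC over GM. ProE, PreCFUE, CFUE and MkE did not differ from neighbour to neighbour beyond their spread, and neither did the 10 lowest groups.

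Gata2, the stem and progenitor factor, was high in the stem cell groups and in 2 populations of the megakaryocyte and red cell branch. It read 10.62 and 10.39 in LTHSC, 10.26, 10.17, 10.46 and 10.30 in MkE, 10.07, 10.22 and 9.89 in MkP and 9.56 and 10.35 in STHSC. GM (8.19, 8.13) and PreCFUE (7.76, 8.60, 8.01) formed a middle step that overlapped none of these. LMPP followed at 7.59, 7.39, 7.64, 6.76 and 6.81, with replicates 4 and 5 lower than the other 3. GMP, CFUE, ETP, ProE, CD4, PreB, CLP, IgM+SP and ProB had means falling in that order, 6.87 in GMP and 5.49 in ProB, with no neighbours apart beyond their spread. NKmature was lowest at 4.69 and 4.13, below every other array. The steps beyond the spread in the whole order were STHSC over GM, PreCFUE over LMPP, and ProB over NKmature.

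Zfpm1, the cofactor of GATA proteins, was high in every population in which Gata1 was high and in several in which it was not. It read 9.86, 10.35 and 9.65 in MkP, 9.38, 9.15, 9.94 and 9.36 in MkE, 9.35, 9.19 and 9.37 in CFUE, 9.07, 9.52 and 9.20 in PreCFUE, and 8.80, 8.99 and 9.05 in ProE. LTHSC (9.19, 9.13), NKmature (8.56, 8.65) and STHSC (8.20, 8.50) stood close by. PreB was the most scattered, at 9.07, 10.38, 8.24 and 8.18. From MkP through STHSC these 9 groups formed a run with no neighbours apart beyond their spread. IgM+SP (7.37, 7.60), GM (6.93, 7.14), ProB (6.41, 6.88), CD4 (6.57, 6.50) and LMPP (5.64 to 6.52) lay in between. CLP (5.16, 5.58), ETP (4.83, 5.51, 5.29) and GMP (4.97, 4.62, 4.74) were lowest. The steps beyond the spread were STHSC over IgM+SP, and LMPP over CLP.

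Gata3, the T cell factor, was high in 3 populations of different lineages. It read 6.67 and 6.69 in CD4, 6.41 and 6.71 in LTHSC and 6.22 and 6.29 in NKmature, and these 6 arrays lay above all others. ETP (4.37, 5.57, 5.15), ProB (4.67, 5.33) and STHSC (4.29, 5.18) overlapped one another, and LMPP read 4.07, 4.12, 4.43, 3.84 and 3.78. The other 10 groups had means between 2.99 in GMP and 3.83 in CLP, all under the filter level of 3.889, where differences rest on dim values. The only neighbours apart beyond their spread were NKmature over ETP.

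The probe sets of Gata2 and Zfpm1 that were not used gave similar orders on lower scales. For Gata2, the group means of both probe sets correlated at 0.971 over 17 groups, and those of Zfpm1 at 0.956, as a description of probe sets read on the same arrays. The dimmer Gata2 probe set read 7.80 to 8.07 in MkE, against 7.19 and 7.58 in LTHSC, and so put MkE first. The dimmer Zfpm1 probe set had group means from 3.07 to 5.03, close to the filter level, and called fewer differences, as given with the settings at the end. The other family genes, Gata4, Gata5 and Gata6, known from heart, gut and other organs, had 7 probe sets with every group mean between 2.77 and 3.99. Zfpm2, the other Fog gene, had means from 4.19 to 5.56 on one probe set and from 2.51 to 2.94 on the other.

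**Figure D2:**
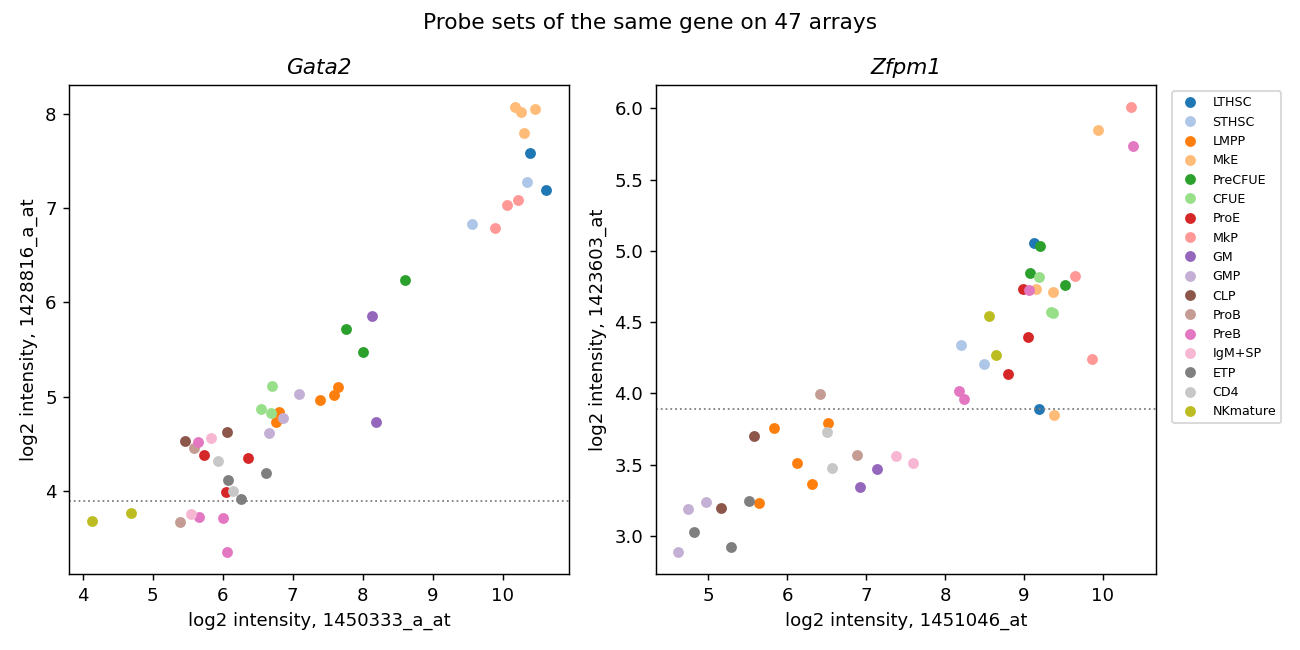
Log2 intensity of both probe sets of Gata2 (left) and Zfpm1 (right) on the 47 arrays, with the probe set used for the gene along the horizontal axis and the dimmer one along the vertical axis. Points are arrays, colours are populations and the dotted line is the filter level of 3.889, under which many Zfpm1 points of the dimmer probe set fall.

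Differences between populations were tested in 23 comparisons set along the branches of blood formation. Each is the first group's mean minus the second's on the log2 scale ± its standard error, estimated by limma with all 47 arrays in 1 fit, with p adjusted by the Benjamini-Hochberg method over all genes tested. A gene counted as called at an adjusted p under 0.05 and a difference of at least 2-fold. Gata1 was called in 6 comparisons (3 higher, 3 lower), Gata2 in 11 (2 higher, 9 lower), Gata3 in 8 (5 higher, 3 lower) and Zfpm1 in 11 (4 higher, 7 lower). The comparisons share groups and so are not independent. The share of all genes called, in either direction, is given with each. Whether arrays overlapped is described for the members only, without the share of all genes, and is not a test.

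**Figure D3:**
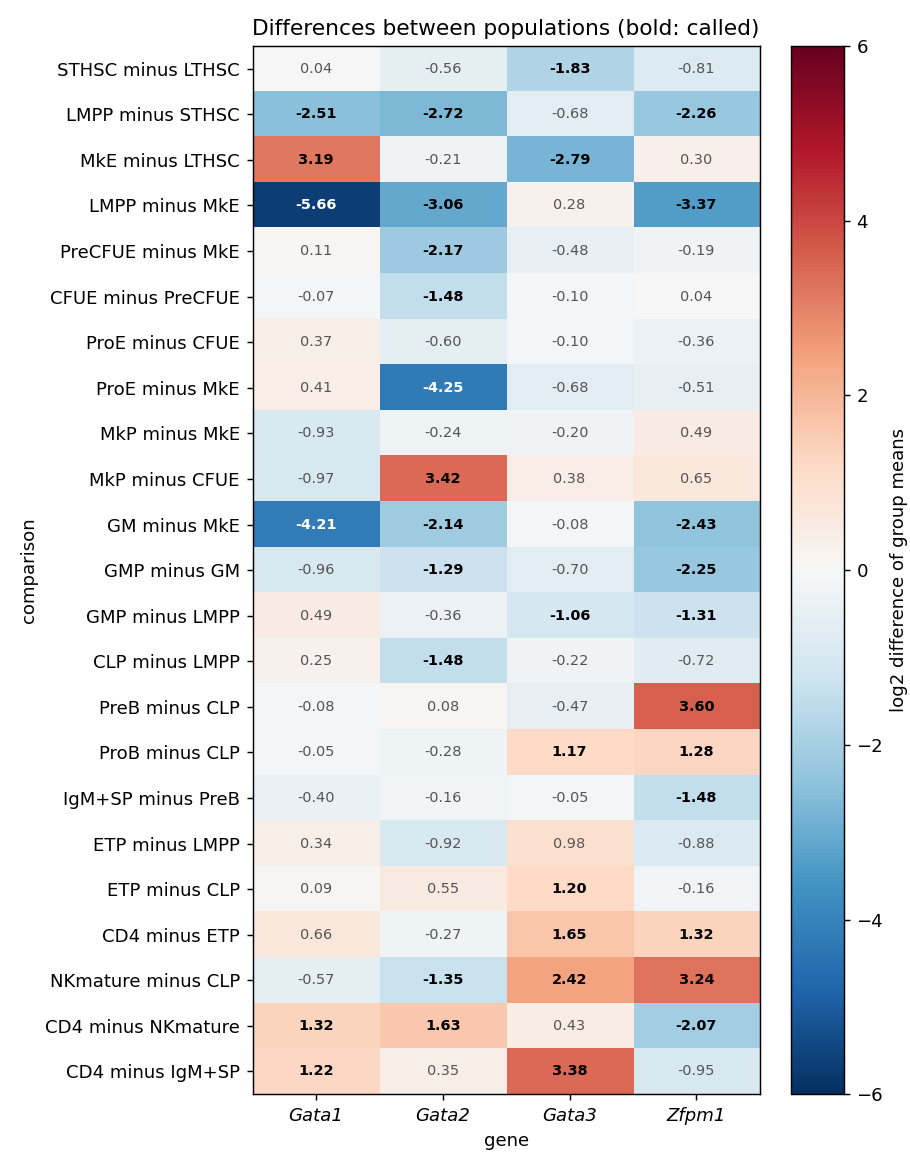
Log2 difference of group means (colour and number) for each gene (columns) in each of the 23 comparisons (rows, first group minus second), with called differences in bold. The darkest cells are Gata1 in LMPP minus MkE (-5.66) and Gata2 in ProE minus MkE (-4.25).

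Between the stem cell groups the exception was Gata3. STHSC had 4.29 and 5.18, against 6.41 and 6.71 in LTHSC, a fall of Gata3 with no overlap (-1.83 ± 0.29, adjusted p = 3.3e-05), in a comparison that called 6.81% of all genes (2.06% higher, 4.75% lower). The adjusted p was 0.096 when only these 4 arrays were fitted. Gata1 (0.04 ± 0.33), Gata2 (-0.56 ± 0.29) and Zfpm1 (-0.81 ± 0.39) were not called. Of 7 erythroid genes 3 were called lower in STHSC and none higher (median -0.68, against -0.13 over all genes). Gata1 varied within both groups, and the arrays with more Gata1 also had the higher mean of the erythroid genes, at 5.23 and 4.79 on STHSC replicates 2 and 1 and at 6.24 and 5.29 on LTHSC replicates 2 and 1, whose part in the result was not tested. Of 12 T lineage genes, 2 were called lower in STHSC and none higher (median 0.11). They were the cytokine Il4 (-1.30 ± 0.25) and the T cell factor Bcl11b (-1.19 ± 0.29), and each lost its call when single arrays were left out (-0.69 for Il4 without LTHSC replicate 2, -0.64 for Bcl11b without STHSC replicate 1). Bcl11b was at -0.58 as the mean of its probe sets.

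All of Gata1, Gata2 and Zfpm1 were lower in LMPP than in STHSC, where 5.42% of all genes (3.92% higher, 1.5% lower) were called. Gata1 read 5.27 to 5.86 in LMPP, against 7.41 and 8.65 in STHSC (-2.51 ± 0.28, adjusted p = 3.2e-08). Gata2 read 6.76 to 7.64 in LMPP, against 9.56 and 10.35 in STHSC (-2.72 ± 0.24, adjusted p = 2.6e-10). Zfpm1 read 5.64 to 6.52 in LMPP, against 8.20 and 8.50 in STHSC (-2.26 ± 0.33, adjusted p = 7.2e-06), but the dimmer Zfpm1 probe set gave -0.74 and no call (adjusted p = 0.32). On the probe sets used no array overlapped in any of these genes, and on the arrays with Eif2s3y alone (2 in each group) the differences were -2.67, -2.47 and -2.28. Gata3 was not called (-0.68 ± 0.24, adjusted p = 0.071), but was without STHSC replicate 1 (-1.13, adjusted p = 0.026). Of 7 erythroid genes 2 were called lower and none higher (median -0.26, against 0.01 over all genes), and 1 of them, Klf1 (-1.38 ± 0.44), was at -0.47 (adjusted p = 0.69) without STHSC replicate 2. Of 12 megakaryocyte genes 7 were called lower (median -1.56), among them the integrin subunit Itga2b (-4.17 ± 0.27) and platelet factor Pf4 (-4.35 ± 0.80). Of 5 mast cell and basophil genes 3 were called lower, among them the monoamine transporter Slc18a2 (-5.24 ± 0.34) and the mast cell protease Cpa3 (-4.66 ± 0.30). Among 12 known partner factors of GATA proteins, 3 were called lower and 1 higher, with the repressor Gfi1b at -1.57 ± 0.29. Klf1 and Gfi1b stand in both this list and that of the erythroid genes, here and below, so the counts of these lists overlap. They were the 2 erythroid genes called here. Of 10 immediate early genes, which respond to cell handling, 1 was called lower (median -2.08), and they split LMPP, with means of 10.42, 10.19, 9.52, 4.76 and 4.73 on replicates 1 to 5, against 10.04 and 10.50 in STHSC, and their part in these results was not tested. Without 1 STHSC or LMPP array in turn, Gata1 ran from -3.13 to -1.89, Gata2 from -3.12 to -2.32 and Zfpm1 from -2.41 to -2.12.

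MkE, set against LTHSC, had more Gata1 and less Gata3, with 19.3% of all genes called, 8.98% higher and 10.3% lower. Gata1 read 11.09 to 11.29 in MkE, against 7.13 and 8.84 in LTHSC (3.19 ± 0.28, adjusted p = 2.5e-11), and ran from 2.33 to 4.04 when 1 array was left out. Gata3 read 3.64 to 3.88 in MkE, against 6.41 and 6.71 in LTHSC (-2.79 ± 0.25, adjusted p = 3.6e-11). Gata2 (-0.21 ± 0.25) and Zfpm1 (0.30 ± 0.34) were not called, and their arrays overlapped. MkE arrays had Xist and LTHSC arrays had Eif2s3y, and with that class as a block Zfpm1 turned to -1.21 (adjusted p = 0.013). All 10 immediate early genes were called lower in MkE (median -5.18, against -0.041 over all genes), with means of 5.02 to 5.13 on the MkE arrays, against 10.81 and 9.94 on the LTHSC arrays, and their part in the results was not tested. Of 7 erythroid genes known to be bound by GATA1, 2 were called higher (median 0.88). These were the factor Klf1 (3.39 ± 0.45, 1.91 without LTHSC replicate 1) and the red cell membrane protein Rhag (3.26 ± 0.32, 2.10 without LTHSC replicate 1), and 4 passed without LTHSC replicate 2 or MkE replicate 2. Of 12 T lineage genes 5 were called lower beside Gata3, among them Thy1 (-2.28 ± 0.34, but -0.86 with an adjusted p of 0.062 with the sex class as a block) and the receptor Notch1 (-2.05 ± 0.29). Of 10 stem cell genes 6 were called lower, with the surface receptor Procr at -7.14 ± 0.36.

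Set against MkE, LMPP had the widest difference of Gata1 among the 23 comparisons, with 12.6% of all genes called, 5.99% higher and 6.64% lower. The values were 5.27 to 5.86 in LMPP, against 11.09 to 11.29 in MkE (-5.66 ± 0.22, adjusted p = 5.0e-22). Gata2 (-3.06 ± 0.20, adjusted p = 1.1e-15) and Zfpm1 (-3.37 ± 0.26, adjusted p = 2.9e-13) were lower too, with no overlap of arrays. Gata3 was not called (0.28 ± 0.20). Of the 12 partner factors, 6 were called lower and 1 higher (median -0.82, against -0.0045 over all genes). Lower ones included Klf1 (-6.37 ± 0.35), Gfi1b (-3.79 ± 0.23) and the stem and red cell factor Tal1 (-1.76 ± 0.18). Of the 7 erythroid genes 4 were called lower, Klf1 and Gfi1b again among them, with Rhag at -4.72 ± 0.25. LMPP and MkE shared no sex class. Of 10 immediate early genes 9 were called higher in LMPP and none lower (median 2.73), with means of 9.52 to 10.42 on LMPP replicates 1 to 3 and of 4.73 and 4.76 on replicates 4 and 5, against 5.02 to 5.13 in MkE. Gata1 was 5.27 to 5.86 on replicates 1 to 3 and 5.43 and 5.58 on replicates 4 and 5. Gata2 was 7.39 to 7.64 on replicates 1 to 3 and lower, at 6.76 and 6.81, on replicates 4 and 5. Zfpm1 was 5.83 to 6.52 on replicates 1 to 3 and 5.64 and 6.13 on replicates 4 and 5. The part of the immediate early genes in these results was not tested.

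Along the red cell steps Gata2 fell, while Gata1 and Zfpm1 were not called. Gata1 means were 11.18 in MkE, 11.28 in PreCFUE, 11.22 in CFUE and 11.58 in ProE, and none of the comparisons between these groups called it, the widest being ProE minus MkE (0.41 ± 0.25, adjusted p = 0.23), although no ProE array overlapped an MkE array. Zfpm1 means were 9.46, 9.26, 9.30 and 8.95 in the same order and were not called either. ProE shares a sex class with none of the other 3. With the class as a block Zfpm1 was called higher in ProE than in CFUE (1.15, adjusted p = 0.031) and than in MkE (1.00, adjusted p = 0.032). That block sets Xist against Eif2s3y by the PreB arrays alone, on which Zfpm1 was scattered, so these values cannot show a rise in ProE. Gata2 means were 10.30, 8.12, 6.65 and 6.05 in that order.

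The first fall of Gata2 was in PreCFUE, at 7.76, 8.60 and 8.01, against 10.17 to 10.46 in MkE (-2.17 ± 0.22, adjusted p = 1.5e-09), where 7.31% of all genes (2.87% higher, 4.44% lower) were called. The next was in CFUE, at 6.70, 6.54 and 6.69, against the PreCFUE values (-1.48 ± 0.24, adjusted p = 3.8e-05), where 2.65% of all genes (1.08% higher, 1.58% lower) were called. On the dimmer probe set this second step was -0.87 with an adjusted p of 0.052. Gata2 read 5.73, 6.05 and 6.35 in ProE, against 6.54 to 6.70 in CFUE, with no overlap but no call (-0.60 ± 0.24, adjusted p = 0.12, 4.62% of all genes called, 1.78% higher and 2.84% lower). Over the whole path, Gata2 in ProE differed from that in MkE by -4.25 ± 0.22 (adjusted p = 2.4e-18), a 19.1-fold difference, with 20.5% of all genes called, 9.48% higher and 11% lower. MkE, PreCFUE and CFUE arrays all had Xist, whereas ProE arrays had Eif2s3y.

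Gata3 was dim on this path. It averaged 3.77 in MkE, 3.29 in PreCFUE, 3.19 in CFUE and 3.09 in ProE, and no step was called. ProE minus MkE was -0.68 ± 0.22, with an adjusted p of 0.015 and under 2-fold, and was called with the sex class as a block (-1.19, adjusted p = 0.0053).

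Partner factors and target genes were called on some of the same steps. In PreCFUE minus MkE, 3 of 12 partner factors were called lower and none higher (median -0.48, against 0.028 over all genes), including the megakaryocyte factor Fli1 (-2.76 ± 0.31) and Nfe2 (-1.16 ± 0.31). Of 10 stem cell genes 5 were called lower, among them the homeobox gene Meis1 (-4.16 ± 0.27) and the factor Erg (-3.81 ± 0.33), at -2.62 and -2.18 as means of their probe sets, and the mast cell protease Cpa3 was lower (-2.94 ± 0.27). In CFUE minus PreCFUE none of the 7 erythroid genes was called. In ProE minus MkE, 5 of 12 partner factors were called lower and none higher (median -0.69, against -0.0021), among them Fli1 (-4.31 ± 0.31), the corepressor Cbfa2t3 (-3.12 ± 0.25) and Nfe2 (-2.07 ± 0.31). In the same comparison 4 of 7 erythroid genes were called higher and none lower (median 1.14). They included the anion exchanger Slc4a1 of the red cell membrane (8.77 ± 0.59, 5.16 as the mean of its probe sets), the haem synthesis enzyme Alas2 (5.54 ± 0.77) and Rhag (2.64 ± 0.28). With the sex class as a block Nfe2 was at -3.91 and Alas2 at 9.92.

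**Figure D4:**
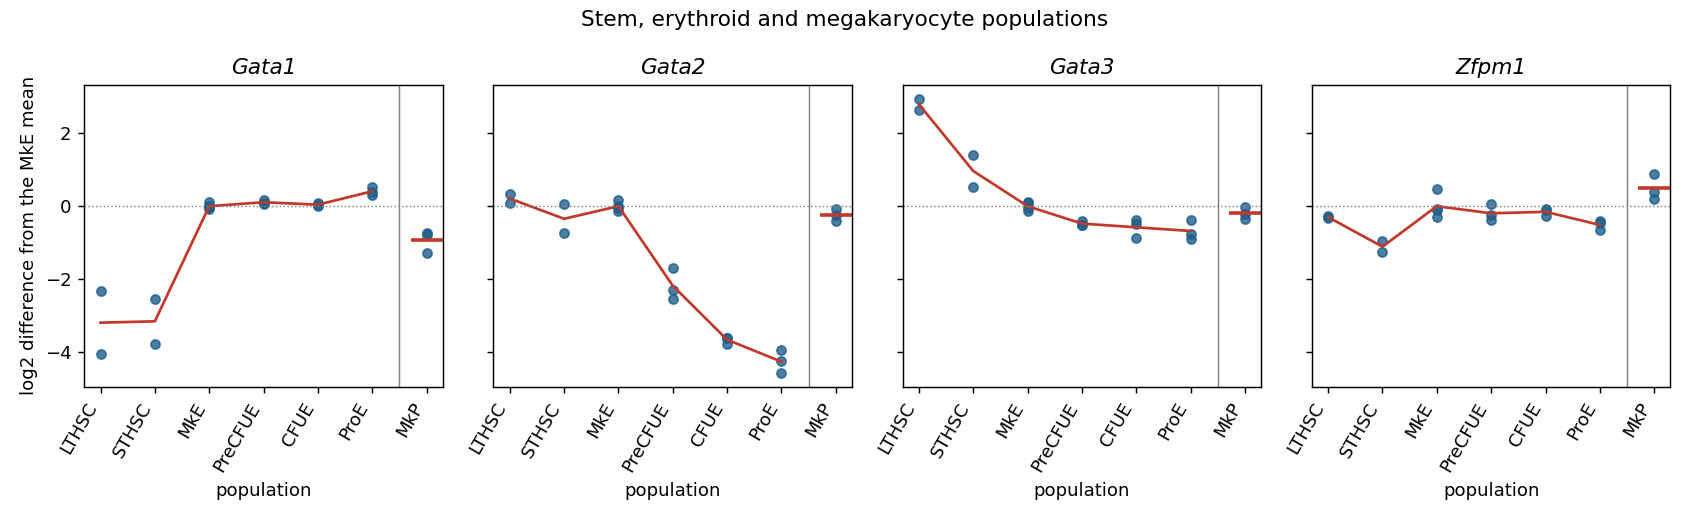
Log2 difference of each array (points) from the MkE mean (vertical axis) for the 4 genes in LTHSC, STHSC, MkE, PreCFUE, CFUE and ProE, with lines through the group means, and in MkP (bar, right of the divider). Gata2 drops to -4.25 in ProE while the means of Gata1 and Zfpm1 on the red cell steps stay between -0.51 and 0.41.

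In MkP, the megakaryocyte branch, Gata2 stayed high. It read 10.07, 10.22 and 9.89 in MkP, against 6.70, 6.54 and 6.69 in CFUE (3.42 ± 0.24, adjusted p = 1.5e-14), a 10.7-fold difference in a comparison that called 25.7% of all genes (7.83% higher, 17.8% lower). Against MkE it was not called (-0.24 ± 0.22, 11.5% of all genes called, 2.96% higher and 8.55% lower), although the dimmer probe set gave -1.01 (adjusted p = 0.0019). Gata1 was lower in MkP with no overlap of arrays, by just under 2-fold, both against MkE (-0.93 ± 0.25, adjusted p = 0.0046) and against CFUE (-0.97 ± 0.27, adjusted p = 0.003). Both differences passed 2-fold without MkP replicate 1 or 2, the lowest array being replicate 3. Zfpm1 had its highest mean in MkP, 9.95, but was not called against MkE (0.49 ± 0.30) or CFUE (0.65 ± 0.32, adjusted p = 0.093). Gata3 was not called in either.

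Among the other genes of this branch, 8 of 12 megakaryocyte genes were called higher and none lower in MkP minus MkE (median 2.61, against -0.08 over all genes), among them the integrin subunit Itgb3 (6.21 ± 0.32, 3.32 as the mean of its probe sets) and Pf4 (6.18 ± 0.73). Of the partner factors Fli1 was higher (2.12 ± 0.31) and Klf1 lower (-2.98 ± 0.40), with 1 higher and 3 lower in all. In MkP minus CFUE, 5 of 12 partner factors were called higher and 4 lower. Fli1 differed by 6.58 ± 0.33, Runx1, a core factor of stem cells and megakaryocytes, by 3.18 ± 0.27 and Klf1 by -3.69 ± 0.43. Of 10 stem cell genes 7 were called higher and 1 lower, with Meis1 at 7.40 ± 0.28. As means of their probe sets Runx1 was at 1.48 and Meis1 at 3.91. Of 7 erythroid genes 4 were called lower, Klf1 and Gfi1b among them, and 1 higher, with Rhag at -6.12 ± 0.30. All MkP, MkE, PreCFUE, CFUE and GM arrays lay in the Xist class.

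Among the granulocyte and monocyte populations, GM had less Gata1, Gata2 and Zfpm1 than MkE. Its means still lay above the LMPP means, a comparison that was not tested. These were 6.97 against 5.51 for Gata1, 8.16 against 7.24 for Gata2 and 7.03 against 6.09 for Zfpm1. GM had Gata1 at 6.98 and 6.95, against 11.09 to 11.29 in MkE (-4.21 ± 0.28, adjusted p = 1.9e-14), with 8.05% of all genes called, 5.71% higher and 2.34% lower. Gata2 (-2.14 ± 0.25, adjusted p = 2.3e-08) and Zfpm1 (-2.43 ± 0.34, adjusted p = 7.5e-07) were lower with no overlap, and Gata3 was not called (-0.08 ± 0.25). Of 7 erythroid genes 4 were called lower (median -2.23, against -0.0084), Klf1 and Gfi1b among them, with Rhag at -4.25 ± 0.32. Of 12 partner factors 4 were lower and 2 higher. Klf1 (-4.07 ± 0.45) and Gfi1b (-2.23 ± 0.30) were lower, and Spi1, the factor of the granulocyte and monocyte lineages also called PU.1, was higher (1.57 ± 0.35, adjusted p = 0.0014, but 0.07 without GM replicate 2).

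Gata1, Gata2 and Zfpm1 were lower again in GMP than in GM, Gata1 by under 2-fold. This comparison called 7.95% of all genes (2.95% higher, 5% lower). Zfpm1 read 4.97, 4.62 and 4.74 in GMP, against 6.93 and 7.14 in GM (-2.25 ± 0.36, adjusted p = 1.5e-05), though the dimmer probe set gave -0.30. Gata2 read 7.10, 6.86 and 6.67 in GMP, against 8.19 and 8.13 in GM (-1.29 ± 0.27, adjusted p = 0.00067), though the dimmer probe set gave -0.49. Gata1 was lower with no overlap but under 2-fold (-0.96 ± 0.30, adjusted p = 0.03), and Gata3 was not called (-0.70 ± 0.27). Of 12 partner factors 8 were called lower and none higher (median -1.36, against -0.014 over all genes), with 5 and 4 without GM replicates 1 and 2. They included Gfi1b (-2.08 ± 0.32) and the bridging factor Ldb1 (-1.85 ± 0.51, adjusted p = 0.013, but 0.12 and 0.09 without GM replicates 1 and 2). Mast cell and basophil genes moved unevenly, with 3 of 5 called higher, among them the IgE receptor chain Ms4a2 (3.68 ± 0.32, 2.35 as the mean of its probe sets), and Slc18a2 called lower (-2.02 ± 0.38). GMP and GM shared no sex class, and with it as a block Zfpm1 was at -0.74 (adjusted p = 0.22), Ldb1 at 0.17 (adjusted p = 0.89) and Gata3 was called lower (-1.22, adjusted p = 0.018).

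Set against LMPP, GMP had less Zfpm1 (4.62 to 4.97, against 5.64 to 6.52 in LMPP, -1.31 ± 0.28, adjusted p = 0.00034), with 16.8% of all genes called, 10.6% higher and 6.24% lower. This call was lost as the mean of both probe sets (-0.87) and on the dimmer one (-0.43, adjusted p = 0.37). Gata3 was also called lower (-1.06 ± 0.21, adjusted p = 0.00013), at 2.91 to 3.03 in GMP, against 3.78 to 4.43 in LMPP. These values straddle the filter level, and with a floor of 16 on the intensity the difference was -0.12, while it was -0.97, under 2-fold, without LMPP replicate 3 and -0.88 under the sex class block. Of 10 immediate early genes 7 were called lower in GMP (median -2.16, against -0.033 over all genes), and their part in these results was not tested. Gata1 (0.49 ± 0.24) and Gata2 (-0.36 ± 0.21) were not called.

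In the lymphoid branch Gata1 stayed low, and Gata2 was called lower in CLP than in LMPP. CLP read 5.46 and 6.06 for Gata2, against 6.76 to 7.64 in LMPP (-1.48 ± 0.24, adjusted p = 7.8e-06), with 21.2% of all genes called, 3.14% higher and 18.1% lower. This call was lost as the mean of both probe sets (-0.91) and on the dimmer one (-0.35, adjusted p = 0.31). Zfpm1 (-0.72 ± 0.33, adjusted p = 0.075), Gata3 (-0.22 ± 0.24) and Gata1 (0.25 ± 0.28) were not called in CLP minus LMPP. Of 10 immediate early genes 4 were called lower in CLP (median -1.77, against -0.099 over all genes), and their part in the Gata2 result was not tested. ETP minus LMPP, with 11.9% of all genes called, 7.12% higher and 4.81% lower, called none of the 4 genes, although 3 came close to 2-fold. These were Gata3 (0.98 ± 0.21, adjusted p = 0.00057), Gata2 (-0.92 ± 0.21, adjusted p = 0.0011) and Zfpm1 (-0.88 ± 0.28, adjusted p = 0.017). Each passed 2-fold without some single array. Gata3 differed by 1.34 between arrays with both Xist and Eif2s3y (2 ETP, 3 LMPP). Between arrays with Eif2s3y alone (1 ETP, 2 LMPP) it differed by 0.27. The immediate early genes split the same arrays, with means of 5.96, 8.85 and 9.28 on ETP replicates 1 to 3. On LMPP replicates 1 to 5 their means were 10.42, 10.19, 9.52, 4.76 and 4.73. The part of the sex class and of these genes in the Gata3 values was not tested.

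Zfpm1 was far higher in PreB than in CLP while no GATA gene was called. It read 9.07, 10.38, 8.24 and 8.18 in PreB, against 5.16 and 5.58 in CLP, a 12.1-fold difference (3.60 ± 0.34, adjusted p = 3.4e-11) in a comparison that called 35.5% of all genes, 25% higher and 10.5% lower. No array overlapped, the difference was 3.13 to 3.86 when 1 array was left out, and the dimmer probe set gave 1.16 (adjusted p = 0.016). Gata1 (-0.08 ± 0.28), Gata2 (0.08 ± 0.25) and Gata3 (-0.47 ± 0.25) were not called. The PreB arrays were split. Replicates 1 and 2 had Xist and the higher Zfpm1, and replicates 3 and 4 had Eif2s3y, NK genes at 6.06 and 6.35 (3.84 and 3.91 on replicates 1 and 2) and megakaryocyte genes at 4.47 and 5.99 (4.05 and 4.62 on replicates 1 and 2). In PreB 7 of 10 immediate early genes were called higher (median 2.25, against 0.06 over all genes). The part of these in the result was not tested. Within the Eif2s3y class, PreB exceeded CLP by 2.84 (2 arrays each).

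Erythroid genes moved with Zfpm1 in part. Their mean was 5.52, 7.05, 5.33 and 5.46 on the PreB arrays, against 4.73 and 4.63 in CLP, and PreB replicate 2, with the highest mean, had the highest Zfpm1. Of 7 erythroid genes 3 were called higher and none lower (median 0.49), Slc4a1 (2.95 ± 0.67), the survival factor Bcl2l1 (2.52 ± 0.22) and Alas2 (2.39 ± 0.87, adjusted p = 0.019, but 1.10 and 0.14 without PreB replicate 2, and 0.20 and 0.83 under the sex class block). As means of their probe sets Slc4a1 was at 1.31 and Bcl2l1 at 0.56, under 2-fold. Without PreB replicate 2 the Zfpm1 difference was 3.13, and the erythroid mean was 5.33 to 5.52 on the PreB arrays that remained. The part of the erythroid genes in the Zfpm1 result was not tested. Gata1 was 5.50, 5.98, 5.36 and 5.91 on PreB replicates 1 to 4. Of 12 partner factors 5 were called lower and 1 higher, with Tal1 at -2.24 ± 0.24, the LIM protein Lmo2 at -1.76 ± 0.32 and Fli1 at 2.44 ± 0.35 (1.24 as the mean of its probe sets). Of 9 B lineage genes 6 were called higher and none lower, including Ms4a1 (CD20, 6.88 ± 0.61) and the receptor chain Cd79b (5.84 ± 0.30).

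In the next B lineage group, IgM+SP, Zfpm1 read 7.37 and 7.60, below all 4 PreB arrays (-1.48 ± 0.34, adjusted p = 0.0014, 12.8% of all genes called, 3.4% higher and 9.43% lower). The difference was -1.01 to -1.74 when 1 array was left out, -0.73 against the 2 PreB arrays of the same sex class, and had an adjusted p of 0.24 when only these 6 arrays were fitted. On the dimmer probe set it was -1.07 and not called (adjusted p = 0.063). Gata1, Gata2 and Gata3 were not called. Among 7 erythroid genes 3 were called lower in IgM+SP and none higher (median -0.48, against -0.019 over all genes), and their part in the Zfpm1 result was not tested. Of 9 B lineage genes 3 were called lower and 1 higher (median -0.47), with the pre-B cell receptor component Vpreb1 at -4.65 ± 0.37 and Ms4a1 at 2.27 ± 0.61.

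NKmature also had high Zfpm1, with high Gata3 and the lowest Gata2. Against CLP, where 41.3% of all genes (29.1% higher, 12.1% lower) were called, Zfpm1 read 8.56 and 8.65 in NKmature, against 5.16 and 5.58 in CLP (3.24 ± 0.39, adjusted p = 1.1e-08), though the dimmer probe set gave 0.95 and no call (adjusted p = 0.083). Gata3 read 6.22 and 6.29 in NKmature, against 3.67 and 3.99 in CLP (2.42 ± 0.29, adjusted p = 1.1e-08). Gata2 was lower, at 4.69 and 4.13 in NKmature, against 5.46 and 6.06 in CLP (-1.35 ± 0.29, adjusted p = 0.00017), and by under 2-fold on the dimmer probe set (-0.85). Gata1 was not called (-0.57 ± 0.33), except after a further quantile normalization (-1.09), which moved the median of all genes in this comparison by -0.24. The erythroid gene mean was 4.18 and 4.28 on the NKmature arrays, the lowest of all populations, and only 3 of the 7 genes were over the filter level there. All 9 NK genes were called higher, with the granzyme Gzma at 8.62 ± 0.99 and the factor Tbx21 at 7.34 ± 0.27, and of 12 T lineage genes 4 were called higher and 2 lower, with Thy1 at 6.02 ± 0.40. NKmature and CLP shared no sex class.

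The arrays labelled ProB followed NKmature rather than PreB in their NK genes, all 9 of which were called higher than in CLP, with Gzma at 7.04 ± 0.99 (12.89 with the sex class as a block) and Tbx21 at 5.13 ± 0.27. Of 12 T lineage genes 5 were called higher and 1 lower, with Thy1 at 5.07 ± 0.40. Of 9 B lineage genes 3 were called higher and 3 lower (median 0.091, against 0.079 over all genes), with Cd22 at 2.88 ± 0.56, Ms4a1 at 2.78 ± 0.71 and the factor Ebf1 lower (-4.90 ± 0.52, -3.05 without ProB replicate 2 and -2.88 as the mean of its probe sets). In ProB minus CLP, with 29.5% of all genes called, 21.9% higher and 7.59% lower, Gata3 (4.67 and 5.33 in ProB, against 3.67 and 3.99 in CLP, 1.17 ± 0.29, adjusted p = 0.0013) and Zfpm1 (6.41 and 6.88 in ProB, against 5.16 and 5.58 in CLP, 1.28 ± 0.39, adjusted p = 0.0077) were called higher. Both calls depended on single arrays. Gata3 was at 0.84 (adjusted p = 0.062) and Zfpm1 at 1.04 (adjusted p = 0.093) without ProB replicate 2, and Zfpm1 at 1.07 (adjusted p = 0.077) without CLP replicate 1. Zfpm1 was at -0.24 with the sex class, which ProB and CLP do not share, as a block, at 0.80 as the mean of both probe sets and at 0.33 on the dimmer one. Gata1 and Gata2 were not called. Of 10 immediate early genes 4 were called higher in ProB (median 1.90), and their part in these results was not tested. Of 7 erythroid genes 2 were called higher and none lower (median 0.26). Their mean was 4.72 and 6.29 on ProB replicates 1 and 2, against 4.73 and 4.63 in CLP, and its part was not tested either.

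Gata3 was called higher in ETP than in CLP and in CD4 than in ETP, though not in ETP minus LMPP (0.98 ± 0.21). ETP read 4.37, 5.57 and 5.15, against 3.67 and 3.99 in CLP (1.20 ± 0.27, adjusted p = 0.00033, 29.2% of all genes called, 22% higher and 7.16% lower), but the difference was 0.93 without ETP replicate 2, and 0.54 without the 7 arrays that had both Xist and Eif2s3y. No other member was called. In ETP 3 of 10 immediate early genes were called higher (median 1.34, against 0.087 over all genes), with means of 5.96, 8.85 and 9.28 on the ETP arrays, against 6.38 and 6.62 in CLP, and their part in the Gata3 result was not tested. Of 12 T lineage genes none was called higher and 2 were lower in that comparison, with the receptor chain Il7r at -3.30 ± 0.70. CD4 then read 6.67 and 6.69 for Gata3, above all ETP arrays (1.65 ± 0.27, adjusted p = 3.8e-06, 26.5% of all genes called, 13.9% higher and 12.5% lower). Zfpm1 was higher in CD4 as well, at 6.57 and 6.50, against 4.83 to 5.51 in ETP (1.32 ± 0.36, adjusted p = 0.0028), but at -0.042 with the sex class as a block, which the groups do not share, at 0.93 as the mean of both probe sets and at 0.54 on the dimmer one. Of the T lineage genes 10 were called higher and 1 lower in CD4 (median 4.06, against 0.002 over all genes), with the receptor component Cd3g at 8.21 ± 0.24 and Bcl11b at 6.93 ± 0.26.

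Among mature lymphocytes, Gata3 was called higher in CD4 than in IgM+SP and was not called between CD4 and NKmature. It read 6.67 and 6.69 in CD4, against 3.47 and 3.14 in IgM+SP, a 10.4-fold difference (3.38 ± 0.29, adjusted p = 6.6e-12, 26.6% of all genes called, 16.7% higher and 9.87% lower). Against NKmature it was 0.43 ± 0.29 (adjusted p = 0.31, 20.4% of all genes called, 8.6% higher and 11.8% lower), and 1.24 (adjusted p = 0.029) under the sex class block. Zfpm1 was lower in CD4 than in NKmature (-2.07 ± 0.39, adjusted p = 6.8e-05), and Gata2 was higher (5.93 and 6.15 in CD4, against 4.69 and 4.13 in NKmature, 1.63 ± 0.29, adjusted p = 3.1e-05). Both calls were lost on the dimmer probe sets, at -0.80 for Zfpm1 (adjusted p = 0.23) and 0.44 for Gata2 (adjusted p = 0.34). Zfpm1 was not called in CD4 minus IgM+SP (-0.95 ± 0.39, adjusted p = 0.053), except after quantile normalization (-1.19) or under a sex class block (-2.47). Gata1 was called higher in CD4, at 6.44 and 6.58, both against NKmature (5.03 and 5.37, 1.32 ± 0.33, adjusted p = 0.0021) and against IgM+SP (5.46 and 5.12, 1.22 ± 0.33, adjusted p = 0.0032). These calls were lost with the sex class as a block (1.16 and 1.12, adjusted p = 0.098 and 0.11). The erythroid gene mean was 5.11 and 5.88 on the CD4 arrays, against 4.18 and 4.28 in NKmature and 4.95 and 4.99 in IgM+SP, and its part in the Gata1 values was not tested. Cd3g was higher in CD4 by 8.11 ± 0.26 against IgM+SP and by 6.45 ± 0.26 against NKmature, and CD4 minus NKmature for Gzma was -8.30 ± 0.99 (-2.36 with the sex class as a block).

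The members were set beside one another and beside the tested genes with plain symbols by Pearson's correlation of the 17 group means, as a description. Rik and Gm-number symbols, and those not made of letters, digits and hyphens alone, were left out of the ranking. All points come from the same arrays and rest on 2 to 5 of them. Gata1 and Zfpm1 correlated at 0.694, Gata1 and Gata2 at 0.521 and Gata2 and Zfpm1 at 0.438. Gata3 stood apart, at -0.354 with Gata1, -0.0183 with Gata2 and -0.0788 with Zfpm1.

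The 6 genes most like Gata1 were Icam4 (0.98), an adhesion molecule of red cells, Samd14 (0.98), Mfsd2b (0.971), a sphingolipid exporter of red cells and platelets, Klf1 (0.964), Septin8 (0.956) and Cracd (0.955). Klf1 differed from Gata1 in MkP, where its mean was 8.32, against 11.31 to 12.08 in MkE, PreCFUE, CFUE and ProE. Those most like Gata2 were Prkg1 (0.936), a protein kinase driven by cyclic GMP, the cytokine Ctf1 (0.921), Usp54 (0.92), the mucin Muc13 (0.918), Tle6 (0.913) and Tek (0.903), a receptor of stem cells and endothelium. Those most like Gata3 were Eva1b (0.926), Pglyrp2 (0.925), Abhd8 (0.9), the GABA receptor subunit Gabbr1 (0.9), Abcg3 (0.898) and Tha1 (0.889). None of the genes ranked followed Zfpm1 as closely as that. The nearest were Fam13a (0.827), Fbxo9 (0.825), Abhd16a (0.797), Tbc1d10b (0.794), Nckap1 (0.783) and the corepressor Ctbp1 (0.779). Fam13a was dim, with group means from 3.51 to 4.37.

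**Figure D5:**
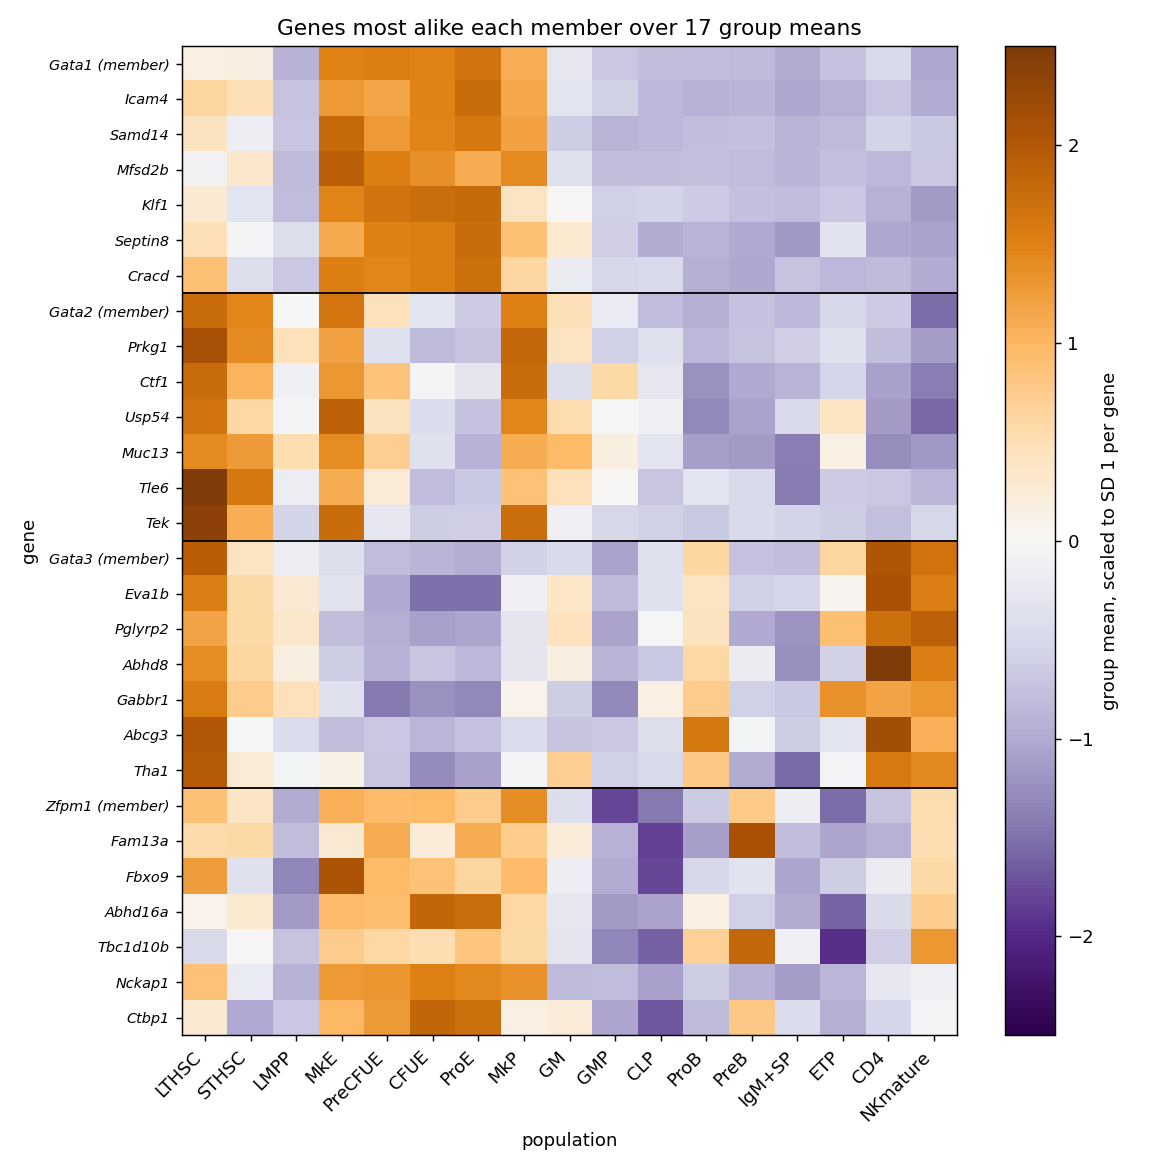
Group means of each member and of the 6 genes with the highest Pearson correlation to it (rows), over the 17 populations (columns), each row centred on its mean and scaled to a standard deviation of 1 (colour). The Gata1 block is high from MkE to MkP, the Gata2 block in the stem cell groups, MkE and MkP, and the Gata3 block in LTHSC, CD4 and NKmature, while the Zfpm1 block (0.779 to 0.827) is looser.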

How the data were processed

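Expression was measured on Affymetrix arrays. For every probe set and array the authors deposited 1 linear intensity, which the series design text says came from RMA. The software is not given in the sources used here. Log2 was taken with no pseudocount. The platform annotation listed 35890 of 45101 probe sets, 34958 with 1 symbol and 932 with several. The brightest probe set over all arrays stood for a gene.

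Groups came from the sample titles. The 13949 genes with a group mean over 3.889 were fitted with 17 group means on all 47 arrays (30 residual degrees of freedom) in limma 3.58.1 on R 4.3.3, with moderated two-sided tests. The fit was tested on simulated data with 200 changed genes. Array medians ran from 13.8 to 16.9 on the linear scale, and the number of arrays limits precision.

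Members and gene lists were chosen with earlier results of these data known. Named genes are the members' probe sets, the 6 most correlated genes per member and up to 3 called genes of a fitting list in a comparison, by size; which of these to print was chosen after seeing values. Lists give counts and medians of log2 differences, with no test. Alternatives were the mean of probe sets, no or a stricter filter (5.968), quantile normalization, median centring, array weights, a floor of 16, a spread with trend and robust fit, blocks for replicate number or sex class, the compared arrays alone, and leaving out each array. Fits of single probe sets, without the 7 arrays with both sex transcripts and without ProB were added after seeing the data, as were the sex classes' thresholds.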

Additional observations from a re-analysis of the deposited data

How the results depend on the processing

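The 92 differences (4 genes in 23 comparisons) were recomputed under all settings, giving 5646 values, of which 5524 kept their direction and their side of the threshold. Of the rest, 34 lost a call, 30 gained one, 53 uncalled values changed sign and 5 reversed. All 4 genes differed among the groups in every setting run. The numbers of comparisons called ran, when 1 array was left out, from 6 to 8 for Gata1, 11 to 12 for Gata2, 7 to 9 for Gata3 and 10 to 12 for Zfpm1. On the dimmer probe set alone, 7 were called for Gata2 in place of 11 and 3 for Zfpm1 in place of 11. All 5 reversals were Zfpm1 with the sex class as a block: MkE minus LTHSC was -1.21 (0.30 without it), ProE minus CFUE 1.15 (-0.36) and ProE minus MkE 1.00 (-0.51), all 3 called with the block only, ProB minus CLP -0.24 (1.28) and CD4 minus ETP -0.042 (1.32). In none of these comparisons do the groups share a class. Only LMPP, PreB and ETP hold more than 1, and only PreB has arrays with Xist alone beside arrays with Eif2s3y alone. The Xist against Eif2s3y part of the block so rests on the 4 PreB arrays. On these Zfpm1 read 9.07 and 10.38 with Xist, and 8.24 and 8.18 with Eif2s3y. With that block 4, 11, 10 and 11 comparisons were called for Gata1, Gata2, Gata3 and Zfpm1, and among the listed genes named, Ldb1 in GMP minus GM turned to 0.17 (-1.85 without it). Without the 7 arrays with both sex transcripts 5, 10, 6 and 9 were called, and without both ProB arrays 6, 11, 7 and 10. Centring arrays on their medians gave 9 for Gata1, and quantile normalization 14 for Zfpm1. These scalings moved the median of all genes by up to 0.27 and -0.24, in comparisons with CLP. The replicate numbers showed no general pairing of the samples. Deviations of 56 same-numbered pairs correlated at -0.378 to 0.404 (median 0.00176), 11 of them over 0.1. In 0 of 9 comparisons with 3 or more pairs did every pair pass. In STHSC minus LTHSC both pairs were at 0.377. Groups of 2 arrays deviate in mirror image, so such pairs give the same value and the 56 are not all independent. With the replicate block, 6, 12, 8 and 12 comparisons were called for Gata1, Gata2, Gata3 and Zfpm1, against 6, 11, 8 and 11 without it. The causes of these changes were not tested. Most groups hold 2 or 3 arrays, and group means lie under the filter level in 10 groups for Gata3 and in 8 for the dimmer Zfpm1 probe set, which limits those values.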
